A study of Rattus norvegicus with 6 samples.

Results

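The p53 target genes described here are 31 genes listed as targets of the transcription factor p53, read in the renal cortex of rats given 1-amino-2,4-dibromoanthraquinone (ADBAQ), a dye intermediate, or corn oil. Members were taken as the genes on this list whose RefSeq transcript is named by a probe of the array. Of the 31, 27 had at least 1 probe and 26 were well above background and tested, out of 15284 named genes on the array and 12007 tested. Pmaip1 had a probe that was well above background on 0 of 6 arrays, and Tnfrsf10b, Eda2r, Ddb2 and Sesn1 had no matched probe and were not analysed here. All 26 tested members were well above background on all 6 arrays, so none entered the test through 1 group alone.

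The animals were male Sprague-Dawley rats, 5 weeks old at purchase. The treated group of 3 rats received ADBAQ at 1000 mg/kg/day for 4 weeks, and the control group of 3 rats received corn oil for 4 weeks. Each rat gave 1 sample of cortex RNA, labelled with Cy3 and read alone on an Agilent rat array. Whole cortex was used, so a lower share of a cell type and less RNA per cell cannot be told apart.

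p53 is a transcription factor held at low levels by the ubiquitin ligase Mdm2. Damage to DNA and other stresses stabilise p53, which then raises genes that stop the cell cycle, repair DNA, adjust metabolism or start apoptosis, and also raises Mdm2 itself, closing a feedback loop. In the kidney, tubule cells exposed to genotoxic drugs are known for a p53 response in which Cdkn1a, Mdm2 and Ccng1 are common readouts. The protein binds DNA at pairs of a palindromic half-site, each made of purines, a core of C and G around A or T bases, and pyrimidines.

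Because these genes are grouped by a shared regulator, the DNA before their start sites was searched for the p53 half-site consensus. RefSeq windows of 300 bases (assembly GRCr8, 250 before and 50 after each gene's start) were found for 24 of the 31 members, and the half-site, which reads the same on both strands, was present for 7 of the 24 (29.2%). The same half-site was present in 2671 of all 33469 windows of that length (7.98%). Those windows were not limited to the 15284 named genes on the array. The members' share counts genes and the other counts windows, so the shares are not of like sets. A pair of half-sites at most 13 bases apart, with no mismatch allowed, was present in 20 of the 33469 windows and in 0 of the members' windows. Pairs with a mismatched base were not searched for, so the 0 does not cover them. The windows of the 6 tested members with a match are shown to let the matched bases be compared, with the half-site in capitals and up to 25 bases on each side.
Ccng1, chr10:25685074-25685126, minus strand: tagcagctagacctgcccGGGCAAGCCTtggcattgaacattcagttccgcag
Cdkn1a, chr20:7150706-7150765, plus strand: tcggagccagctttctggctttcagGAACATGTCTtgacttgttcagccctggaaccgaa
Gadd45a, chr4:97486813-97486872, minus strand: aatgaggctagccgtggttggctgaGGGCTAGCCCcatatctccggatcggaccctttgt
Ckap2, chr16:76541864-76541920, plus strand: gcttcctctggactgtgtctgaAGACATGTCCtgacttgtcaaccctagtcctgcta
Ei24, chr8:44699416-44699475, minus strand: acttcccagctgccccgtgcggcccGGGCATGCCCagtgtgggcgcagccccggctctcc
Aen, chr1:142224478-142224532, plus strand: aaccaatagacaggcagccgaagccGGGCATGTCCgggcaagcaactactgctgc
Counted from the gene's start, with bases before it negative, the half-site began at -232 in Ccng1, -201 in Cdkn1a, -48 in Gadd45a, -228 in Ckap2, -79 in Ei24 and -30 in Aen. The matches for Cdkn1a, Ckap2, Ei24 and Aen hold the core CATG, that for Gadd45a holds CTAG and that for Ccng1 holds CAAG. A match is a description of the letters and not a binding site.

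Arrays of the corn oil rats had a 75th percentile of processed signal of 1126 to 1177 and those of the ADBAQ rats one of 1279 to 1307. Between 69.0% and 72.3% of an array's probes were well above background. Slide 1 and scan 1 held the corn oil arrays alone and slide 2 and scan 2 the ADBAQ arrays, so a slide or scan difference and a treatment difference cannot be told apart. Markers of the proximal tubule, the main cell type of the cortex, were present: all 12 listed were tested, Slc34a1 and Lrp2 among them. Levels are given as log2 signal relative to the array's own 75th percentile, so that 0 is that percentile. Each test compares 1 probe between arrays, and levels of different probes are not ranked against each other.

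After ADBAQ, the member with the largest difference was Gdf15, a secreted stress cytokine, at 2.13-fold the corn oil level. The feedback genes Mdm2 and Ccng1 and the growth arrest genes Gadd45a, Plk2 and Zmat3 lay 1.18-fold to 1.39-fold above corn oil with no overlap between groups. Cdkn1a, which encodes the p21 inhibitor of cyclin-dependent kinases, had almost the same mean in both groups. None of these differences passed limma's moderated test after Benjamini-Hochberg adjustment over 12007 genes: of the 26 members, 0 were higher and 0 were lower, where 0.225% of all genes tested were higher and 0.0666% lower. The smallest adjusted p among members was 0.073, for Gdf15.

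At an unadjusted p under 0.05, 7 members were higher (26.9%, against 8.94% of all genes tested) and 1 was lower (3.85%, against 10.5%). The 3 ADBAQ arrays lay wholly above the 3 corn oil arrays for 8 members (30.8%, against 12.7% of all genes) and wholly below for 1 (3.85%, against 14.8%). The 8 were Gdf15, Mdm2, Ccng1, Gadd45a, Plk2, Zmat3, Trp53inp1 and Ei24, of which Ei24 alone did not reach an unadjusted p under 0.05, and the 1 below was Perp. The median difference over the 26 members was 0.097 on the log2 scale, beside -0.011 over all genes tested. It was 0.026 without ADBAQ replicate 2. Members' 95% intervals excluded a 1.5-fold difference in either direction for 22 of 26 (84.6%, against 75.1% of all genes).

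**Figure D1:**
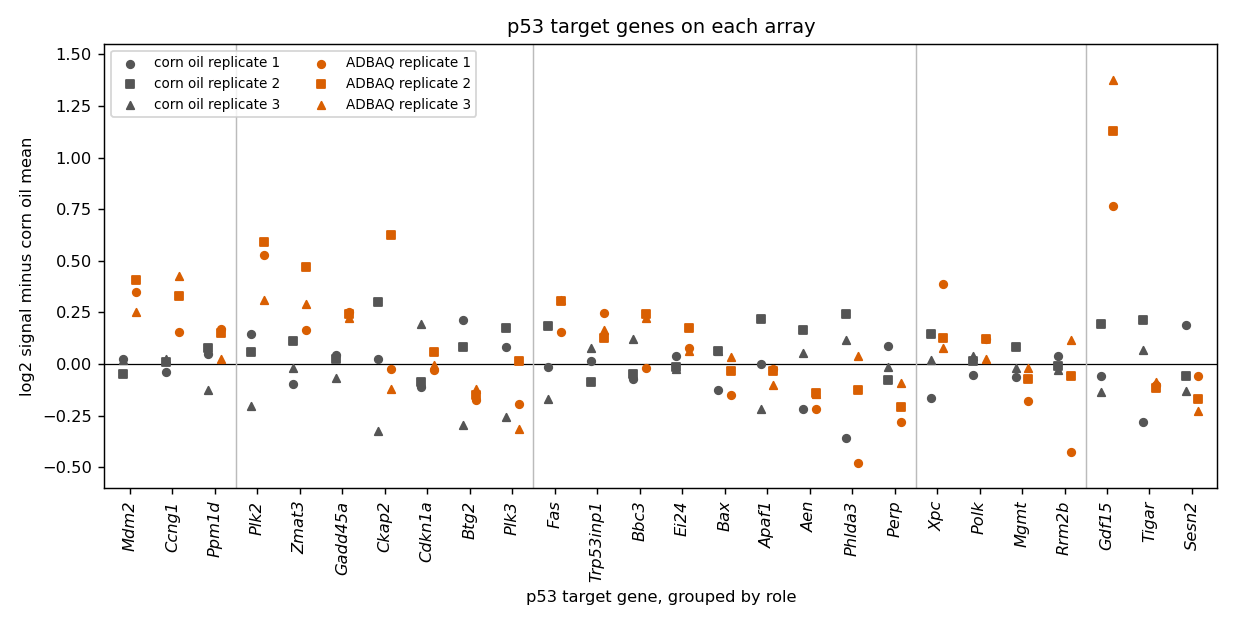
Log2 signal of the 26 tested p53 target genes on each array, minus that gene's corn oil mean (y axis), with genes grouped by role on the x axis, corn oil arrays in grey, ADBAQ arrays in orange and symbols for replicates. All 3 ADBAQ points lie above all 3 corn oil points for 8 genes, with Gdf15 farthest, and below them for Perp.

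**Figure D2:**
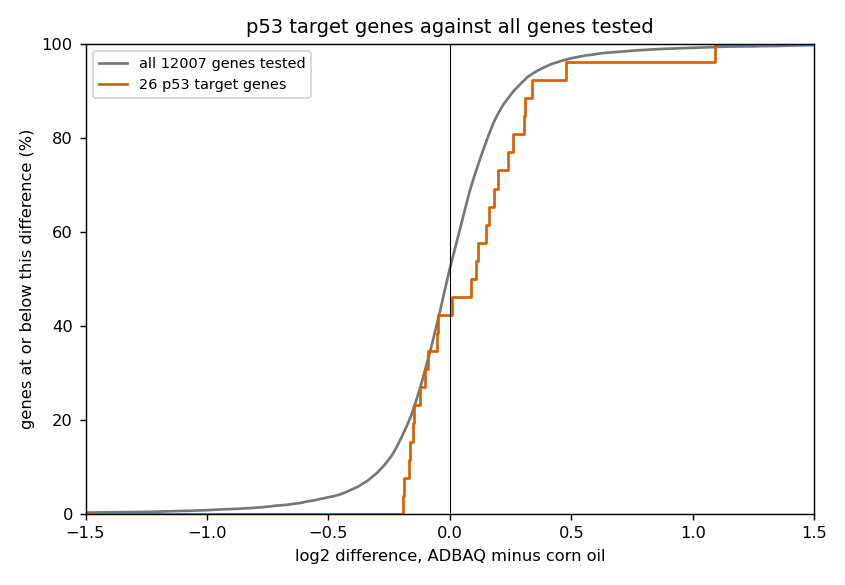
Percent of genes (y axis) at or below each log2 difference of ADBAQ minus corn oil (x axis), for the 26 p53 target genes in orange and all 12007 genes tested in grey. The members' curve lies to the right in its upper part, with a median of 0.097 against -0.011, and its lower end stops at -0.19. Genes beyond the ends of the x axis are not drawn.

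Among the genes that act back on p53, Mdm2, the ligase that marks p53 for breakdown, had log2 signals of 0.94, 0.87 and 0.93 on the corn oil arrays and 1.26, 1.32 and 1.17 on the ADBAQ arrays. The lowest ADBAQ array thus lay above the highest corn oil array, by more than the spread within either group. The difference was 0.34 ± 0.064 SE on the log2 scale (1.26-fold, 95% interval 1.13 to 1.41, n = 3 per group, limma adjusted p = 0.10). When 1 array at a time was left out, or another setting was used, the value ran from 0.25 to 0.50 and the unadjusted p stayed under 0.05 in 15 of 15 cases.

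Ccng1, cyclin G1, which recruits a phosphatase to Mdm2, had log2 signals of 1.85, 1.90 and 1.91 in corn oil and 2.04, 2.21 and 2.31 after ADBAQ, with no overlap between groups. Its difference was 0.30 ± 0.083 SE (1.23-fold, interval 1.07 to 1.42, limma adjusted p = 0.16). Ppm1d, the phosphatase Wip1, which removes activating phosphates from p53 and its kinases, had -0.072, -0.040 and -0.25 in corn oil and 0.049, 0.033 and -0.094 after ADBAQ. The groups overlapped, through ADBAQ replicate 3, and the difference was 0.12 ± 0.081 SE (adjusted p = 0.47). A second, dimmer Ppm1d probe gave -0.081 ± 0.070 SE. On their brightest probes all 3 genes of this feedback class had positive differences, as did 47.7% of all genes tested. Of the 3, 0 passed the test.

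The cell cycle and growth arrest class held 7 tested members, of which 3 lay wholly above corn oil (42.9%, against 12.7% of all genes) and 4 overlapped it. Cdkn1a had log2 signals of 4.66, 4.69 and 4.97 in corn oil and 4.74, 4.83 and 4.77 after ADBAQ. The corn oil arrays spanned the ADBAQ arrays, with corn oil replicate 3 the highest of all. The difference was 0.0065 ± 0.097 SE (1.00-fold, interval 0.852 to 1.18, limma adjusted p = 0.98). Its half-site before the start is shown above, and of the other 5 tested members with such a match, Ccng1, Gadd45a and Ei24 lay wholly above corn oil while Ckap2 and Aen overlapped it. Among tested members with a window, the half-site was present in 3 of the 6 that lay wholly above corn oil and in 3 of the other 15. The counts are small, and the 6 were picked by their own signals, where 12.7% of all genes also lay wholly above corn oil. Whether a half-site goes with a difference was not tested.

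Gadd45a, which slows the cell cycle and aids repair after damage, had the smallest SD of these 7 genes in both groups. Its log2 signals were 3.10, 3.09 and 2.99 in corn oil and 3.32, 3.30 and 3.28 after ADBAQ, and the groups did not overlap. The difference was 0.24 ± 0.057 SE (1.18-fold, interval 1.07 to 1.30, limma adjusted p = 0.13). Plk2, a polo-like kinase of centriole duplication and stress response, was a dim probe with -3.34, -3.43 and -3.69 in corn oil and -2.96, -2.90 and -3.18 after ADBAQ. It had the largest difference of this class, 0.48 ± 0.12 SE (1.39-fold, interval 1.13 to 1.71, limma adjusted p = 0.14), again without overlap.

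Zmat3, an RNA-binding zinc finger protein that restrains growth downstream of p53, had 1.39, 1.60 and 1.47 in corn oil and 1.65, 1.95 and 1.78 after ADBAQ. The groups were separate by a narrow margin, and the difference was 0.31 ± 0.10 SE (limma adjusted p = 0.19). Btg2, an antiproliferative protein and early response gene, differed by -0.15 ± 0.13 SE and Plk3, a stress-activated polo-like kinase, by -0.16 ± 0.14 SE. Corn oil replicate 3 was the lowest corn oil array for both. The 3 ADBAQ arrays lay inside the corn oil range for Btg2, and all but ADBAQ replicate 3 did for Plk3. Ckap2, a microtubule protein of mitosis, had the widest spread of the 26 members within the ADBAQ group (SD 0.405), and its difference was 0.16 ± 0.25 SE (adjusted p = 0.75).

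Of the apoptosis genes, 9 were tested, and 2 lay wholly above corn oil (22.2%, against 12.7% of all genes), 1 wholly below (11.1%, against 14.8%) and 6 overlapped. Trp53inp1, a nuclear protein that promotes p53-dependent death and autophagy, had -1.16, -1.26 and -1.10 in corn oil and -0.92, -1.05 and -1.01 after ADBAQ. Its difference was 0.18 ± 0.069 SE (1.13-fold, interval 1.01 to 1.27, limma adjusted p = 0.24). Ei24, a membrane protein of the endoplasmic reticulum, differed by 0.11 ± 0.059 SE with no overlap (limma adjusted p = 0.38). Perp, a p53 effector and a component of desmosomes, had 5.13, 4.96 and 5.03 in corn oil and 4.76, 4.83 and 4.95 after ADBAQ. It was the member with the lowest difference, -0.19 ± 0.077 SE (0.874-fold, interval 0.766 to 0.997, limma adjusted p = 0.25). Over the alternative settings and left-out arrays Perp ran from -0.25 to -0.032, with an unadjusted p under 0.05 in 6 of 15.

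Fas, the death receptor, had -2.59, -2.39 and -2.75 in corn oil and -2.42, -2.27 and -2.26 after ADBAQ. ADBAQ replicate 1 lay below the highest corn oil array, so the groups overlapped, and the difference was 0.26 ± 0.11 SE (1.20-fold, limma adjusted p = 0.26). Bax, which permeabilises the mitochondrial membrane, had 0.64, 0.82 and 0.82 in corn oil and 0.61, 0.73 and 0.80 after ADBAQ, a difference of -0.048 ± 0.083 SE (interval 0.839-fold to 1.11-fold). Bbc3 (Puma), an activator of Bax, differed by 0.15 ± 0.098 SE and Apaf1, the scaffold of the apoptosome, by -0.052 ± 0.12 SE. Their limma adjusted p values were 0.44 and 0.83. A second, dimmer Apaf1 probe gave 0.28 ± 0.090 SE with all ADBAQ arrays above all corn oil arrays (limma adjusted p = 0.20 over probes), so the 2 Apaf1 probes had opposite signs. Aen, a nuclease induced by p53, differed by -0.17 ± 0.11 SE, and Phlda3, a repressor of the kinase Akt, by -0.19 ± 0.20 SE, with adjusted p values of 0.43 and 0.65. The probe for Pmaip1 (Noxa), another activator of the mitochondrial pathway, was not well above background in either group.

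None of the 4 tested repair genes had groups that were separate. Of all genes tested, 12.7% lay wholly above corn oil and 14.8% wholly below, so few of 4 genes would be separate at those shares. Xpc, the damage sensor of nucleotide excision repair, had 0.029, 0.34 and 0.21 in corn oil and 0.58, 0.32 and 0.27 after ADBAQ. Only ADBAQ replicate 1 lay above all corn oil arrays, and the difference was 0.20 ± 0.12 SE (1.15-fold, limma adjusted p = 0.41). Polk, a polymerase that copies past bulky adducts, differed by 0.088 ± 0.060 SE, Rrm2b, the p53-induced subunit of ribonucleotide reductase, by -0.12 ± 0.14 SE, and Mgmt, which removes alkyl groups from guanine, by -0.090 ± 0.072 SE. Their 95% intervals ran from 0.960-fold to 1.18-fold, 0.721-fold to 1.17-fold and 0.831-fold to 1.06-fold. Their adjusted p values lay between 0.46 and 0.67.

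The metabolism and stress class held Gdf15, Sesn2 and Tigar. Gdf15 is a secreted member of the TGF-beta superfamily that p53 and other stress pathways induce. Its log2 signals were -0.86, -0.61 and -0.94 in corn oil and -0.036, 0.33 and 0.58 after ADBAQ. All 3 ADBAQ arrays lay above all corn oil arrays, and the treated rats differed among themselves more than the controls did (SD 0.308 against 0.172). The difference was 1.09 ± 0.17 SE (2.13-fold, interval 1.58 to 2.87, n = 3 per group, limma adjusted p = 0.073). Of the 12007 genes tested, 76 had a larger difference and 139 a smaller p.

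Gdf15 passed the threshold under some settings. Its adjusted p was 0.047 with normexp background correction, where 0.558% of all genes were called higher, and 0.044 with robust variances that follow signal level, where 0.6% were. It was 0.033 without scaling between arrays, where the median of all genes moved to 0.15 and 8.55% were called higher. Over all 15 alternatives the difference ran from 0.95 to 1.25 and the adjusted p from 0.033 to 0.24, with an unadjusted p under 0.05 in 15 of 15. Sesn2, a sestrin that restrains mTORC1 under stress, had 0.82, 0.57 and 0.50 in corn oil and 0.57, 0.46 and 0.40 after ADBAQ, a difference of -0.15 ± 0.10 SE. Tigar, which lowers glycolytic flux toward the pentose phosphate route, differed by -0.10 ± 0.13 SE. The groups overlapped for both, with limma adjusted p values of 0.45 and 0.70.

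**Figure D3:**
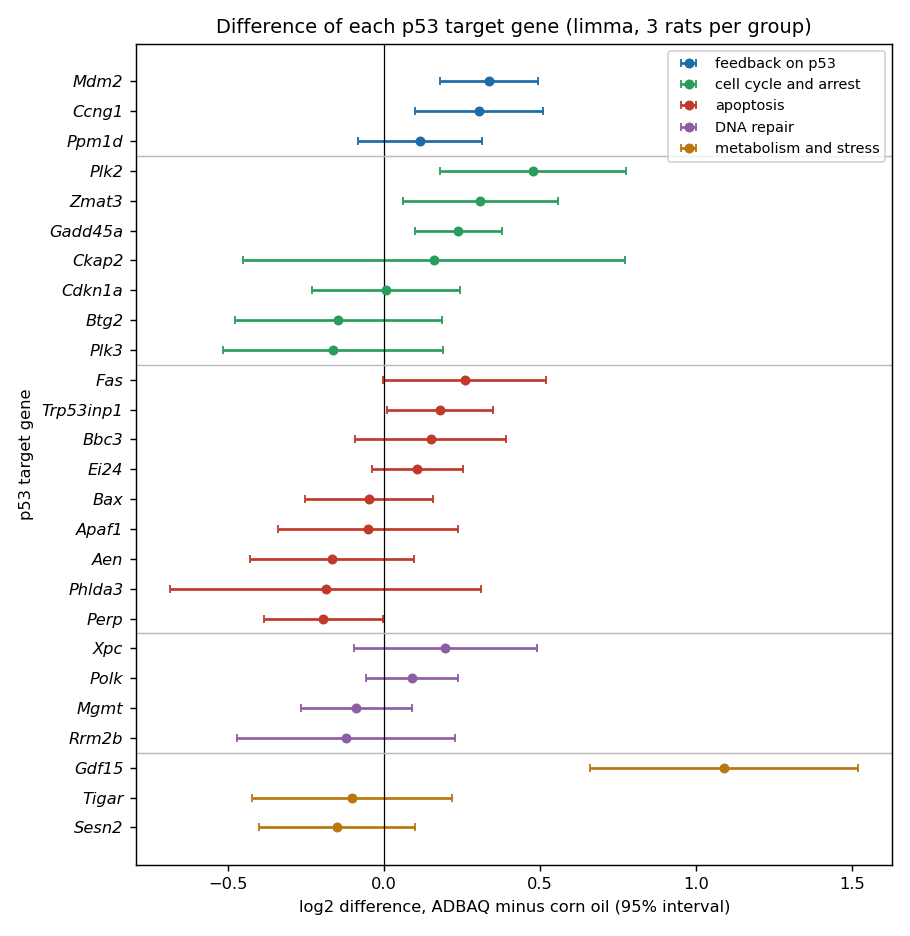
Log2 difference of ADBAQ minus corn oil (x axis) with its 95% interval from limma for each tested p53 target gene (y axis), coloured by role. Gdf15, at 1.09, stands apart from the other 25 genes, which lie between -0.19 and 0.48.

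Other probes of the same genes gave a second reading of the same RNA. Of 15 members with 2 or more tested probes, the probes had the same sign for 10 and opposite signs for 5 (Aen, Apaf1, Cdkn1a, Ppm1d and Tigar), and the median distance between the lowest and highest probe was 0.15. The other Gdf15 probe gave 1.24 ± 0.17 SE, beside 1.09 for the brighter one, with the 3 ADBAQ arrays again wholly above corn oil. The other Mdm2 probe gave 0.16 ± 0.070 SE, also with no overlap. The other Ccng1 probe gave 1.13 ± 0.61 SE, where ADBAQ replicate 3 stood at 1.94 against -0.33 and -0.23 for the other two ADBAQ arrays. The brighter Ccng1 probe had no such gap. The 3 Cdkn1a probes gave 0.0065, -0.023 and -0.096.

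**Figure D4:**
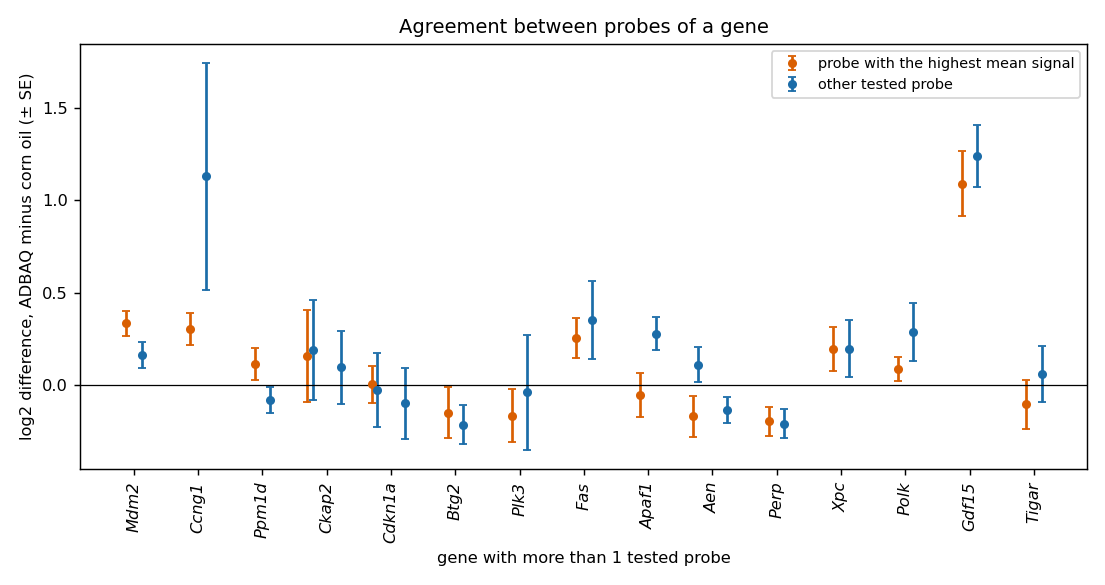
Log2 difference of ADBAQ minus corn oil with its SE (y axis) for every tested probe of the p53 target genes with more than 1 tested probe (x axis), the probe with the highest mean signal in orange and the others in blue. Both Gdf15 probes lie above 1, and the other Ccng1 probe has the widest SE, 0.61.

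Genes upstream of the members were read from a list of 25 regulators of p53, of which 17 were tested. Of the 17, 0 passed limma's adjusted threshold, 0 were higher and 2 (Rpl11 and Hipk2) were lower at an unadjusted p under 0.05 (11.8%, near the 10.5% of all genes), and the median difference was 0.032. Mdm4, the partner of Mdm2 that blocks p53, differed by 0.060 ± 0.077 SE (adjusted p = 0.70). Rpl11, a ribosomal protein that can bind and inhibit Mdm2, differed by -0.19 ± 0.067 SE and Hipk2, a kinase that phosphorylates p53, by -0.21 ± 0.080 SE, with adjusted p values of 0.21 and 0.24.

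Of 42 further p53 targets outside the members, 35 were tested, and 1 rose and 0 fell over all genes. At an unadjusted p under 0.05, 8 were higher (22.9%, against 8.94% of all genes) and 4 were lower (11.4%, against 10.5%), and the median difference was 0.12. The 1 that rose was Ephx1, the microsomal epoxide hydrolase, which acts in detoxification and is also induced by other xenobiotic pathways (1.07 ± 0.084 SE, 2.09-fold, limma adjusted p = 0.012). It lost the call without corn oil replicate 1 or 3, without ADBAQ replicate 1 or 2, and in the blocked fit (adjusted p 0.0033 to 0.11 over the alternatives). Dram1, a lysosomal protein of p53-dependent autophagy, differed by 0.70 ± 0.11 SE (1.63-fold, adjusted p = 0.073). Dram1 passed the threshold in 2 of 15 alternatives (limma adjusted p 0.033 to 0.22). Ddit4 (Redd1), an inhibitor of mTORC1, had 2.88, 2.40 and 2.07 in corn oil and 1.44, 1.30 and 1.45 after ADBAQ, a difference of -1.06 ± 0.20 SE (adjusted p = 0.10).

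Cell cycle genes that the DREAM complex silences when p21 is high were read from a list of 30, of which 23 were tested. By limma 0 rose and 0 fell over all genes, and the median difference was -0.086. At an unadjusted p under 0.05, 0 were higher (against 8.94% of all genes) and 1 was lower (4.35%, against 10.5%). The 1 was Foxm1, a transcription factor of mitotic genes, at -0.33 ± 0.11 SE (adjusted p = 0.21). Birc5 (survivin) had -0.66, -0.62 and -0.76 in corn oil and -1.60, -0.67 and -1.14 after ADBAQ, and Nek2, a centrosome kinase, differed by 0.49 ± 0.21 SE. Their adjusted p values were 0.33 and 0.27.

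Marker genes of cell types were read too, and outside the alternative settings only the red cell list had genes past limma's adjusted threshold. All 7 tested red cell markers lay wholly above corn oil (100%, against 12.7% of all genes). With adjustment over all genes 4 rose, where 0.225% of all genes were called higher. The 4 were Alas2, Hbb, Hemgn and Rhd, by 1.61, 1.04, 1.07 and 1.54 (limma adjusted p 0.0065 to 0.016). Globin genes have near-identical copies, so the Hbb value may mix them. The 4 calls became 1 without any one of the 3 corn oil arrays, 2 without ADBAQ replicate 2 and 0 in the fit blocked on replicate number. Their summed signal, in multiples of the array's 75th percentile, ran from 160.9 to 176.8 in corn oil and from 321.0 to 371.7 after ADBAQ, of which Hbb made up 97.6% to 98.4%. Without Hbb the sums ran from 2.58 to 2.80 and from 7.60 to 8.56. Of 15 leukocyte markers, 0 passed limma's adjusted threshold and 2 were higher at an unadjusted p under 0.05 (13.3%, against 8.94% of all genes). Their sums ran from 87.1 to 100.6 in corn oil and from 100.6 to 110.8 after ADBAQ. Lyz2 alone made up 81.8% to 86.3% of the leukocyte sums, which ran from 15.1 to 17.1 in corn oil and 15.2 to 16.3 after ADBAQ without it. The 2 higher markers were Cd52 and Itgam, at 1.40 and 1.27, while Cd3e and Cd3g stood at -0.78 and -0.75 with overlap. Itgam was well above background on 1 of 3 corn oil arrays and 3 of 3 ADBAQ arrays. It thus entered the test through the ADBAQ group alone, and its difference is from a level near background. Of the leukocyte markers, 1 passed the adjusted threshold without scaling, with normexp, with trend and robust variances and without ADBAQ replicate 1, and 3 collecting duct markers passed without scaling. Of 12 proximal tubule markers, 0 passed and 5 were lower at an unadjusted p under 0.05 (41.7%, against 10.5% of all genes). The 12 had a median difference of -0.031, beside -0.011 over all genes tested, with 5 differences positive and 7 negative. Their sums ran from 3042 to 3106 in corn oil and from 2850 to 2934 after ADBAQ. Of the other marker lists, 0 of 5 thick limb and distal tubule, 0 of 7 collecting duct, 0 of 5 glomerulus, 0 of 5 endothelium and 0 of 5 fibroblast genes passed, with medians of -0.059, 0.15, 0.0047, -0.017 and -0.10. At an unadjusted p under 0.05 by limma, 1, 3, 0, 1 and 0 of them were higher (20%, 42.9%, 0%, 20% and 0%, against 8.94% of all genes). In the same order, 0, 0, 0, 0 and 1 were lower (20% for fibroblast, against 10.5%). Their part in the members' values was not tested. A permutation test of 3 against 3 cannot go below p = 0.1, so the p-values above rest on limma's model.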

How the data were processed

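Cortex RNA of 6 rats, described in the labels as separate animals, was hybridised to 1-colour Agilent arrays. Per the file headers, Feature Extraction 10.7.1.1 made the values (10.7 per the submitters' processing notes). The deposited processed signal is a linear, background-subtracted intensity, and the median spot and median background intensity served 1 alternative. Per the file headers, flags (other units) mark controls, outliers, saturation and detection. The authors' values over all samples, also deposited, are the processed signal as a ratio to a constant for each array, linear and uncentred; that constant differed from the 75th percentile by at most 0.0858%. Medians of the columns were 0.110, 0.113 and 0.112 in corn oil and 0.113, 0.114 and 0.111 in ADBAQ. The reason for the constant is not given.

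Of 62976 spots, 1319 controls and 73 outlier-flagged probes were dropped. The log2 of the processed signal was taken, less the array's 75th percentile. Probes well above background on all 3 arrays of either group were tested (42256). Probe accessions were matched to RefSeq genes (GRCr8, symbols and promoter windows only): 27460 of 61657 probes had 1 gene, 0 several and 34197 none. Trp53inp1 was matched through a synonym in that table. The tested probe with the highest mean stood for its gene. Groups were compared with limma 3.58.1 (lmFit, eBayes, two-sided, no covariates) in R 4.3.3 with data.table (version 1.17.8), over 12007 genes at a Benjamini-Hochberg adjusted p of 0.05, and the fit was tested on simulated data. Python 3.11.15 with pandas 2.3.3 and matplotlib 3.10.9 made the plots.

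All members are named. In the other lists Mdm4, genes past the threshold and a few with the smallest p are named too; 1 gene that the rule named is not reported here and was left out of its list. The members and lists were chosen with earlier results of these data known. Intervals are limma's 95% intervals. The alternatives were quantile and no scaling, normexp (offset 50), no detection filter, detection on all 6 arrays, the mean of probes, trend and robust variances, the authors' table, a replicate block and leaving out each array.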

Additional observations from a re-analysis of the deposited data

How the results depend on the processing

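Members past limma's adjusted threshold numbered 0 higher and 0 lower in 12 of 15 alternatives, with 0 to 0 when 1 array was left out. The higher count was 7 without scaling between arrays, 1 with normexp and 1 with trend and robust variances. At an unadjusted p under 0.05, 7 higher and 1 lower became 13 and 0 without scaling. The lower count was 0 with quantile normalization, 0 without detection filter, 0 with the replicate block and 0 to 2 over left-out arrays (2 without corn oil replicate 1, 0 without ADBAQ replicate 1 or 2), against 5 to 7 for the higher. The share of all genes at that unadjusted p was not counted under the alternatives, so these counts cannot be set beside it. The members' median was 0.26 without scaling, where that of all genes was 0.15, and 0.026 to 0.12 over left-out arrays. Of 390 values of single members, 363 kept direction and side of the threshold, and 18, in 9 members, changed sign. Without scaling Btg2 was 0.016, Bax 0.11, Apaf1 0.11, Rrm2b 0.040, Mgmt 0.073, Sesn2 0.011 and Tigar 0.061. With the mean of probes Cdkn1a was -0.037 and Apaf1 0.11. Without 1 array Cdkn1a ran from -0.048 to 0.10, Ckap2 from -0.073 to 0.31, Bax from -0.11 to 0.0014, Apaf1 from -0.16 to 0.057, Rrm2b from -0.24 to 0.030 and Tigar from -0.24 to 0.0048. The cause was not tested. Over all genes, 27 higher and 8 lower became 67 and 78 with normexp, 72 and 84 with trend and robust variances, 1027 and 54 without scaling, 0 and 0 with the block, and 8 to 25 and 1 to 10 over left-out arrays. Without scaling, 1 regulator, 7 further targets, 7 red cell, 3 collecting duct and 1 leukocyte marker were higher. The leukocyte count was also 1 with normexp, with trend and robust variances and without ADBAQ replicate 1. Further targets that were higher numbered 2 with trend and robust variances. Same-numbered arrays deviated together at correlations of 0.0094, 0.16 and 0.035, so the numbers were not taken as pairs; corn oil replicate 3 correlated best with ADBAQ replicate 1 (0.13). The number of arrays limits precision: the median distance from a member's difference to its 95% limit was 0.25.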
